A study of Homo sapiens with 4 samples.

Results

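The regions described here were open, by the authors' peak calls, after dexamethasone and after estradiol but not after vehicle, in the human endometrial adenocarcinoma line Ishikawa, an established cell line. They were chosen by list membership alone. Overlapping regions (1 bp or more) of the vehicle, dexamethasone and estradiol lists on chromosomes 1 to 22 and X were merged, and a merged region was kept when it held a dexamethasone call and an estradiol call and no vehicle call. There were 2526 such members among 8975 merged regions. The other merged regions were 1640 called in all 3 lists, 4038 called with dexamethasone alone, 514 with estradiol alone, 199 with vehicle and dexamethasone, 21 with vehicle and estradiol, and 37 with vehicle alone.

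Accessibility was read with ATAC-seq: a transposase cuts DNA where nucleosomes leave it free and joins sequencing adapters there. Each library came from 250000 nuclei of cells kept for at least 4 days in hormone-depleted medium and then given vehicle (DMSO), 100 nM dexamethasone, 10 nM estradiol, or both hormones at those doses, for 1 hour. Every treatment had 1 library, and all came from the same cell line, so no spread between replicates exists and nothing below was tested between treatments. The vehicle, dexamethasone, estradiol and combination libraries held 10694743, 14980230, 20185339 and 8240912 tags after duplicate removal. Genes, motifs and DNA sequence under the regions, and markers of the cell type, were not analysed here, because the positions are on hg19 and no genome or annotation of that build was used.

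As background, dexamethasone is a synthetic ligand of the glucocorticoid receptor and estradiol is the natural ligand of the estrogen receptor. Both receptors are transcription factors of the nuclear receptor family. Once bound by ligand they attach to response elements, mostly at enhancers, recruit coactivators and remodelers, and can raise local accessibility within an hour. Each receptor has its own response element, and the receptors can also meet at sites held open by pioneer factors or by AP-1. In endometrial epithelium estrogen drives growth, and glucocorticoids act on many of the same cells. Regions that appear in both hormone lists and not in the vehicle list are where sites used by both receptors would be found, and they are also where regions that a shallower vehicle library left under its threshold would be found. With 1 library for each treatment these readings cannot be told apart.

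The members made up 28.1% of all merged regions. They were 30.1% of the merged regions that held a dexamethasone call (2526 of 8403, 95% exact interval 29.1 to 31.1) and 53.7% of those that held an estradiol call (2526 of 4701, 52.3 to 55.2). Of the 4166 regions called after both hormones, 60.6% had no vehicle call (59.1 to 62.1). Intervals given with shares are 95% Clopper-Pearson intervals and cover only the error of counting. These shares follow from the rule and describe the lists. Holding each list to the length of the vehicle list, by p-value, reduced the members from 2526 to 319. All 319 were among the 2526, which is nearly fixed in advance, because the vehicle list stays whole and only the hormone lists are shortened.

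Members were moderate in height. The pileup, which counts tags extended to the library's fragment length over the highest point of a region, had a median of 22 tags after dexamethasone (quartiles 18 and 25, range 11 to 56). After estradiol the median was 19 tags (16 and 21, range 10 to 66). In regions called in all 3 lists the medians were 30 tags after dexamethasone, 24 after estradiol and 19 with vehicle, and in regions called after a single hormone they were 18 tags for dexamethasone alone and 17 for estradiol alone. Members therefore lay between the regions shared with vehicle and the regions of a single hormone list in each library, with quartile ranges that touched or overlapped those of both. The same order held for the fold enrichment, the authors' ratio of pileup to local background with 1 added to each. Median fold after dexamethasone was 12.1 in regions of all 3 lists, 10.4 in members and 9.30 in dexamethasone-only regions, and after estradiol it was 10.3, 9.21 and 8.71 for the corresponding classes. Members were also narrower than regions of all 3 lists, with a median merged width of 179 bp (range 89 to 617) against 262.5 bp. The classes were set by calls in these same libraries, and the rule favours this order of height, fold and width. It is therefore a description and not a trait of the members apart from the rule.

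**Figure D1:**
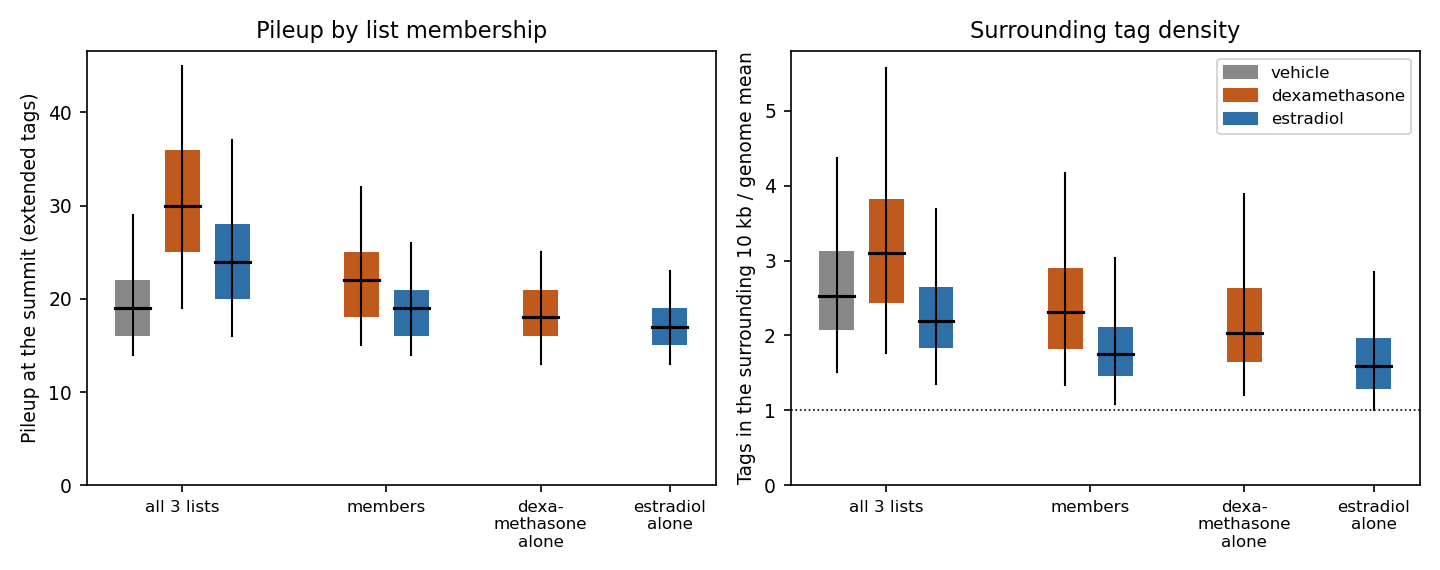
Left, pileup at the summit in extended tags, and right, tags in the surrounding 10 kb divided by the genome mean, for regions in all 3 lists (n = 1640), members (n = 2526), dexamethasone alone (n = 4038) and estradiol alone (n = 514), coloured by library. Boxes span the quartiles, black bars are medians and lines run from the 5th to the 95th percentile over regions; in each hormone library the members' median lies between those of the shared and the single-hormone regions.

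Pileups are not scaled to depth, so each was also multiplied by the ratio of vehicle tags times fragment length to those of its own library (0.834 for dexamethasone, 0.656 for estradiol). On that scale the members had a median of 18.4 tags after dexamethasone and 12.5 after estradiol, where the vehicle pileup in regions of all 3 lists had a median of 19 and a range of 10 to 93. The scaled dexamethasone pileup reached the lowest vehicle pileup of 10 tags in 2524 of 2526 members, and the scaled estradiol pileup in 2156 (85.4%, 83.9 to 86.7). That lowest value is not a calling threshold, because the p-value also depends on the local background. Reaching it therefore does not mean that a member was high enough for a vehicle call. In regions of all 3 lists the 5th percentile of the vehicle pileup was 14 tags, and the lowest scaled dexamethasone pileup of a member was 9.18. Only 1115 members (44.1%, 42.2 to 46.1) reached the median of 19 on the dexamethasone scale, and 52 (2.06%, 1.54 to 2.69) on the estradiol scale. Of the 1640 regions of all 3 lists, 1415 (86.3%, 84.5 to 87.9) reached 19 on the dexamethasone scale. On the estradiol scale 384 did (23.4%, 21.4 to 25.5), and 1582 (96.5%, 95.5 to 97.3) reached 10 tags. Scaled estradiol pileups were thus mostly below 19 in regions called with vehicle too, though less often than in members. Another yardstick is the ratio actually seen between libraries. In regions of all 3 lists the vehicle pileup was a median of 0.645 times the dexamethasone pileup and 0.800 times the estradiol pileup. Multiplying the members' medians by these ratios gives 14.2 and 15.2 tags, and 9.51% and 16.6% of the vehicle pileups in regions of all 3 lists were that low or lower. Both scales start from called heights, which the threshold selects for being high.

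How often a region in both hormone lists lacked a vehicle call moved with its height. Of the 98 such regions with up to 14 tags after dexamethasone, 95 were members (96.9%, 91.3 to 99.4). The share was 76.6% at 20 to 24 tags (906 of 1182), 26.0% at 30 to 39 tags (226 of 869) and 5.91% at 40 tags or more (13 of 220, 3.18 to 9.89). By estradiol pileup it went from 89.4% at up to 14 tags (195 of 218) through 59.2% at 20 to 24 tags (809 of 1367) to 9.57% at 30 to 39 tags (29 of 303) and 8.77% at 40 or more (5 of 57, 2.91 to 19.3). Most members are thus regions of low to middle height in both hormone libraries. At 40 tags or more after dexamethasone stood 13 members, still without a vehicle call. The 5 members at 40 or more after estradiol lay in tag-rich surroundings. Both hormone libraries held at least 5 times the genome mean of tags in the 10 kb around each. Of these 5, all but chr19:27732673-27732784 (36 tags) were also among the 13. The pair on chromosome 6 had folds between 4.27 and 5.22. Not all of the 13 had such surroundings: chr3:114866480-114866698, with 45 tags after dexamethasone, reached 6.58 and 3.95 times the mean.

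**Figure D2:**
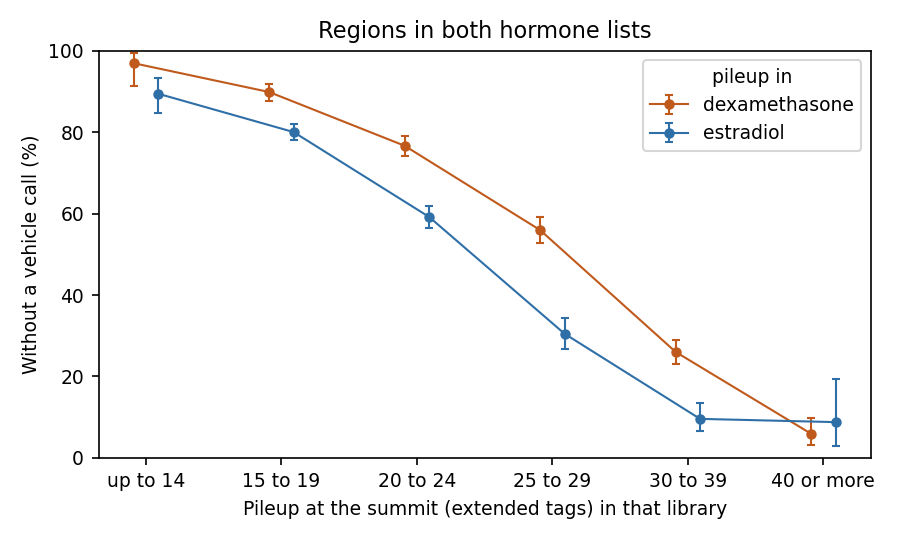
Share of regions in both hormone lists that had no vehicle call (members), in percent with 95% exact intervals, by pileup at the summit in extended tags after dexamethasone (orange) and after estradiol (blue). The share goes from 96.9% at up to 14 tags to 5.91% at 40 tags or more after dexamethasone.

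The values at the threshold show how fine the line is. The weakest members by the smaller of their −log10 p-values were chr18:19320544-19320704 (16 tags and −log10 p of 17.4 after dexamethasone, 10 tags and 10.06 after estradiol), chr22:43485279-43485472 (11 tags and 12.1, then 10 tags and 10.07) and chr4:120375765-120375982 (13 tags and 15.4, then 10 tags and 10.07). Just outside, the regions of all 3 lists with the weakest vehicle calls were chr8:1771916-1772077, at −log10 p of 11.1 with vehicle, 27.4 after dexamethasone and 15.7 after estradiol, chr12:53845603-53845867, at 11.3, 28.4 and 20.9, and chr19:8115499-8115711, at 11.3, 16.5 and 14.4. The first of these outside regions held 29 tags after dexamethasone, more than the median member, and was kept out by a vehicle call close to the cutoff of 1e-10.

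Within the members the values in the hormone libraries were compared region by region, as a description. Neither is a change from vehicle, since members have no vehicle value. Fold enrichment was higher after dexamethasone in 1876 of 2526 members (74.3%, 72.5 to 76.0), where the same was true of 77.7% of all 4166 regions in both hormone lists. In regions of all 3 lists it was higher in 1362 of 1640 (83.0%, 81.1 to 84.8), a larger share than in members. Calls in these same libraries defined both classes, and members lay nearer the threshold, so this difference is not a trait of the members apart from the rule. The ratio of the dexamethasone to the estradiol fold had a median of 1.13 in members and 1.16 in regions of all 3 lists. The pileup was higher after dexamethasone in 1823 members, equal in 193 and higher after estradiol in 510 (20.2%), although the estradiol library was the deeper. The ratio of the dexamethasone to the estradiol pileup had a median of 1.15 (quartiles 1.00 and 1.33, range 0.560 to 2.24). Scaled for tags and fragment length this ratio had a median of 1.47 in members and 1.59 in regions of all 3 lists. Across the members the folds after the 2 hormones had a Pearson r of 0.431 and a Spearman rho of 0.388 (n = 2526 regions, which share their 2 libraries), against a Spearman rho of 0.574 over the 1640 regions of all 3 lists. The highest dexamethasone and estradiol folds were 18.3 and 17.1 in members and 31.8 and 28.4 in regions of all 3 lists. This contrast in rho is likewise not a trait of the members apart from the rule.

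**Figure D3:**
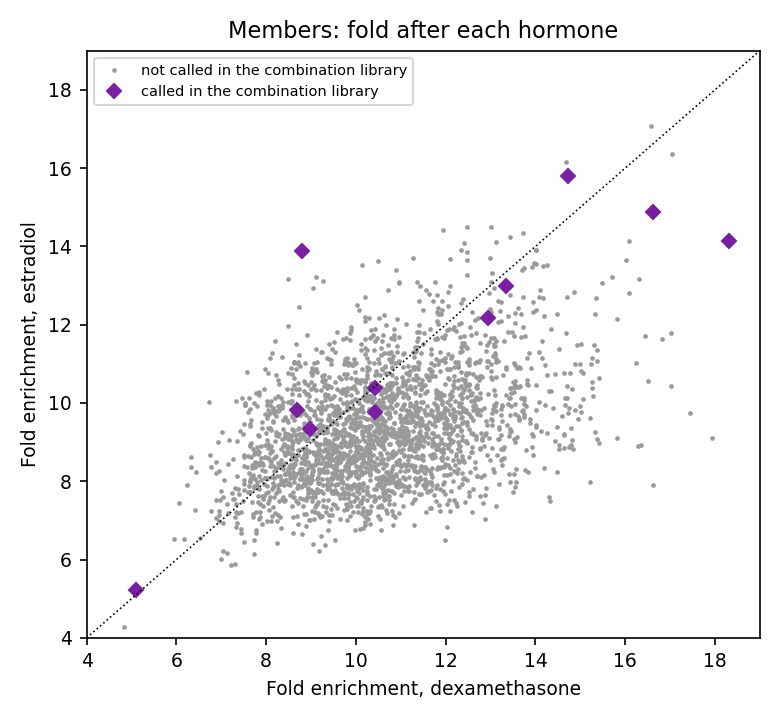
Fold enrichment over local background after dexamethasone (x axis) and after estradiol (y axis) for the 2526 members, 1 point each, with the 11 members also called in the combination library as purple diamonds and equality as a dotted line. Most points (1876) lie below the line, at higher fold after dexamethasone.

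The members at the edges of this ratio were picked after their values were seen. The most dexamethasone-weighted member was chr2:178937439-178937615, with 38 tags and 17.9-fold enrichment after dexamethasone against 17 tags and 9.12-fold after estradiol. Next came chr5:171042370-171042516, with 31 tags against 14 (16.6-fold and 7.90-fold), and chr6:88032171-88032408, with 26 tags against 12 (15.2-fold and 7.99-fold). Their pileup ratios of 2.24, 2.21 and 2.17 arose although the dexamethasone library held fewer tags than the estradiol library. At the other edge, chr10:98561341-98561527 held 14 tags after dexamethasone and 25 after estradiol (8.81-fold and 13.9-fold). It was followed by chr12:69402384-69402535, with 14 against 24 tags (6.73-fold and 10.02-fold), and chr12:26254392-26254609, with 15 against 25 tags (7.94-fold and 10.4-fold). Of these 6 regions, the one on chromosome 10 was also called in the combination library.

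The dexamethasone and estradiol calls of a member lay close together, which the overlap rule and the short regions favour. The dexamethasone and estradiol summits of a member were a median of 28 bp apart (quartiles 11 and 54, largest 284), within 50 bp in 1820 of 2526 (72.1%, 70.3 to 73.8) and more than 100 bp apart in 166 (6.57%). They were at the same base in 36 (1.43%). In regions of all 3 lists the median was 29 bp and 67.3% lay within 50 bp (64.9 to 69.5). The estradiol interval lay wholly inside the dexamethasone interval in 1211 members (47.9%), and the reverse was true in 182 (7.21%). Median region length was 165 bp after dexamethasone and 124 bp after estradiol, from fragment lengths of 89 and 84 bp. Members holding more than 1 region of a hormone list numbered 26. Overlap was part of the rule, so summits far apart could not enter unless the regions were long.

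The strongest members are named by the smaller of their folds after the 2 hormones, so that each had to be high in both. At the top stood chr21:38807526-38807715, with 29 tags and 16.6-fold enrichment after dexamethasone and 31 tags and 17.1-fold after estradiol. It lay 167534 bp from the nearest vehicle region. The second was chr9:103173970-103174186, with 37 tags (17.1-fold) and 32 tags (16.4-fold). These were the 2 members at 15-fold or more in both libraries, a level that 28 of the 1640 regions of all 3 lists reached. The third, chr4:9693355-9693531, had 27 tags (16.6-fold) after dexamethasone and 24 (14.9-fold) after estradiol, and its nearest vehicle region was 1281665 bp away. The fourth, chr2:92290491-92290603, had 21 tags (14.7-fold) and 25 tags (15.8-fold), with summits 1 bp apart. The fifth, chr2:88899689-88899932, had 27 tags (14.7-fold) and 35 tags (16.2-fold). After it came chr3:189794923-189795093, with 36 tags (16.1-fold) and 37 tags (14.1-fold), and chr4:3957249-3957389, with 31 tags (18.3-fold, the highest dexamethasone fold of any member) and 22 tags (14.1-fold). The last of the 10 was chr7:83314347-83314572, with 28 tags (13.7-fold) and 29 tags (14.3-fold). Between them, chr15:49462263-49462400 and chr16:70323367-70323564 had equal values, 23 tags (14.02-fold) after dexamethasone and 24 tags (13.9-fold) after estradiol.

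Fold was higher after dexamethasone in 6 of these 10 regions, and 3 were called in the combination library. A fold of at least 10 in both hormone libraries was reached by 568 members (22.5%, 20.9 to 24.2) and by 898 of the 1640 regions of all 3 lists (54.8%, 52.3 to 57.2). The widest member, chr3:188665484-188666100, was 617 bp long, with 29 tags (7.21-fold) after dexamethasone and 20 tags (5.85-fold) after estradiol. It was picked after its values were seen.

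The surroundings of the members could be read from the deposited values as well. The caller takes its background from the tags within 10 kb around a region, or from the genome mean where that is higher, and solving the fold for this number gave a whole tag count (within 0.02 tags) or exactly the genome mean in 100% of the regions of every list. These counts include the tags of the region itself. Around members there was a median of 128 tags in 10 kb after dexamethasone (quartiles 101 and 161) and 131 after estradiol (109 and 158). Relative to the genome means of 55.5 and 74.8 tags these are 2.31 and 1.75 times the mean. Around regions of all 3 lists the medians were 3.10 and 2.19 times the mean, with 2.52 times in vehicle, and around single-hormone regions 2.04 times for dexamethasone and 1.59 times for estradiol. The members' medians thus lay above the genome mean and between the same classes as for their height. This background cannot fall below the genome mean, and the part of the regions' own tags in it was not tested. Over the members, pileup and tags in 10 kb had a Spearman rho of 0.646 after dexamethasone and 0.599 after estradiol.

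More than 2 times the genome mean was found around 1705 members after dexamethasone (67.5%, 65.6 to 69.3) and around 799 after estradiol (31.6%, 29.8 to 33.5). Only 15 members after dexamethasone (0.594%) and 76 after estradiol (3.01%) had surroundings at or below the mean. The counts in the 2 libraries followed each other closely, with a Spearman rho of 0.894 over 2526 members. For the pileups at the summit, which are also tag counts, rho was 0.535, and for the folds it was 0.388. Pileups are far smaller counts and had to pass the calling threshold. The part of these in the lower rho was not tested. Both libraries share the genome of 1 cell line. The ratio of dexamethasone to estradiol surroundings, each over its genome mean, had a median of 1.32 in members (quartiles 1.19 and 1.45), against 1.40 in regions of all 3 lists (1.28 and 1.52). By these counts, tags were more concentrated around members in the dexamethasone than in the estradiol library, as they were around regions shared with vehicle. The regions' own tags are part of these counts.

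A few members lay in stretches far richer in tags than the rest, and those named here were picked after their values were seen. Neighbouring members chr6:58777342-58777465 and chr6:58777807-58777898 both had 1144 tags in 10 kb after dexamethasone, 20.6 times the genome mean, and 1413 and 1410 tags after estradiol. Their pileups were among the highest of all members, at 53 and 56 tags after dexamethasone and 54 and 66 after estradiol, yet their folds were among the lowest, between 4.27 and 5.22. Next were chr18:109261-109358, with 476 and 582 tags in 10 kb, and chr18:18520248-18520341, with 431 and 499. Surroundings of at least 5 times the mean in both libraries were found for 6 members (0.238%) and for 21 of the 1640 regions of all 3 lists (1.28%). As background, the positions on chromosomes 6 and 18 near 58777342 and 18520248 flank centromeres, where repeated DNA makes short tags hard to place. Neither this nor the position of any other member relative to centromeres was checked against an annotation.

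Other tag-rich members belonged to stretches that several regions share. At chr10:112678330-112678445 (422 and 372 tags in 10 kb), chr12:6961110-6961326 (393 and 353), chr3:38065890-38066217 (385 and 337) and chr3:114866480-114866698 (365 and 295), a vehicle region lay within 440, 185, 149 and 61 bp. In these 4 cases the member was an additional region beside one already called with vehicle. The same held for tag-rich members named above, with a vehicle region 68 and 62 bp from the neighbouring pair on chromosome 6 and 287 bp from chr18:109261-109358. Others stood further off, with a vehicle region 660389 bp from chr18:18520248-18520341, 4408 bp from chr1:86072876-86073277 (377 and 311 tags in 10 kb) and 13323 bp from chr10:42398605-42398772 (324 and 439).

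Over all members, a vehicle-called region lay within 1 kb of 50 members (1.98%, 1.47 to 2.60), within 10 kb of 98 (3.88%, 3.16 to 4.71) and within 100 kb of 625 (24.7%, 23.1 to 26.5). The median gap from a member to the nearest vehicle region was 322 kb. For dexamethasone-only regions the share within 10 kb was 3.81% (3.24 to 4.45), for estradiol-only regions 5.06% (3.33 to 7.32), and for regions of all 3 lists, counting other regions than themselves, 4.76% (3.78 to 5.90). These intervals overlapped, and no difference in spacing was detectable at 10 kb. Within 100 kb the share was 28.9% for regions of all 3 lists (26.7 to 31.2), above the members, and 22.3% for dexamethasone-only regions (21.0 to 23.6), whose interval overlapped theirs. The nearest pairs, picked after their values were seen, were chr6:52368682-52369058 and chr1:29609559-29609802, with a vehicle region 22 and 28 bp away. The furthest was chrX:118987014-118987213, 10.1 Mb from any vehicle region, with 12 tags after dexamethasone and 11 after estradiol.

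Spacing among the members was described in the same way. Another member lay within 1 kb of 54 members (2.14%), within 10 kb of 128 (5.07%) and within 100 kb of 771 (30.5%). Counting regions of every class, 434 members (17.2%, 15.7 to 18.7) had a neighbour within 10 kb, against 17.7% of regions of all 3 lists (15.9 to 19.7). Divided into 1 Mb windows, the genome had 1410 windows with a member, of which 747 held exactly 1 and 42 held 5 or more. The highest count was 8 members, reached on chr5:149000001-150000000 (among 15 merged regions), chr1:33000001-34000000 (among 13) and chr11:64000001-65000000 (among 12). The window on chromosome 11 held no region of all 3 lists. In total 1145 members lay in windows without one. The same count was not made for the other classes, so it has no baseline and does not describe a separation from regions shared with vehicle.

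By chromosome, the members' share of all merged regions had an interval that excluded the overall 28.1% on 2 of 23 chromosomes, chromosome 11 at 33.9% (150 of 443, 29.5 to 38.5) and chromosome 12 at 23.01% (136 of 591, 19.7 to 26.6). Of the regions in both hormone lists 60.6% lacked a vehicle call over all chromosomes, and the interval excluded this on 4 of 23. On chromosome 12 members were 136 of 292 regions in both hormone lists (46.6%, 40.7 to 52.5). On chromosome 22 they were 29 of 34 (85.3%, 68.9 to 95.05), on chromosome 20 52 of 69 (75.4%, 63.5 to 84.9) and on chromosome 9 107 of 156 (68.6%, 60.7 to 75.8). Regions of 1 chromosome are not independent of each other, so these intervals are too narrow, and that of chromosome 9 begins just above the overall share.

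Tag density around the members did not follow these shares on every chromosome. The median number of tags in 10 kb around members on chromosome 12 was 144 after dexamethasone and 152 after estradiol, second only to chromosome 10 with 147 and 156. It was lower on chromosome 22, at 102 and 113, on chromosome 20, at 116 and 116.5, and on chromosome 9, at 122 and 128. Chromosome 16, at 118 and 120.5, had a share of 55.0% (45.7 to 64.1). Chromosome 14, at 127 and 121, had a share of 54.0% (45.7 to 62.2). Chromosome 10, with the densest surroundings, nevertheless had a share of 58.3% (51.7 to 64.7), close to that over all chromosomes. Chromosome 21 had the thinnest after dexamethasone, at 93 and 100 tags, with a share of 57.1% (34.0 to 78.2). The part of tag density in the chromosomes' shares was not tested.

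**Figure D4:**
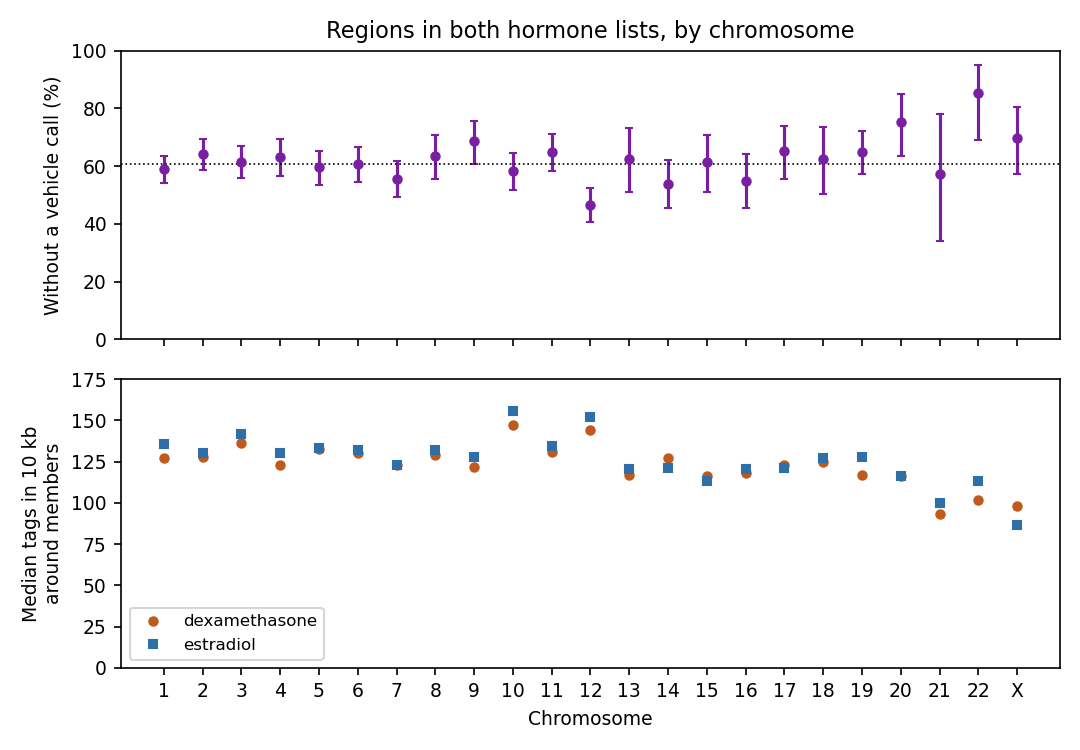
Top, share of regions in both hormone lists without a vehicle call, in percent with 95% exact intervals, by chromosome, with the share over all chromosomes (60.6%) dotted. Bottom, median tags in the 10 kb around members after dexamethasone (orange circles) and estradiol (blue squares); chromosome 12 has the lowest share, 46.6%, with medians of 144 and 152 tags.

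The combination library was not used to choose the members. It was the shallowest, with a fragment length of 51 bp, and had 130 regions on chromosomes 1 to 22 and X. Only 11 of the 2526 members were called in it (0.435%, 0.218 to 0.778), against 1.16% of all merged regions. Of regions in all 3 lists 75 of 1640 were called (4.57%, 3.61 to 5.70), of dexamethasone-only regions 3 of 4038 (0.0743%, 0.0153 to 0.217) and of estradiol-only regions 10 of 514 (1.95%, 0.937 to 3.55). Members were thus called less often than regions of all 3 lists and than estradiol-only regions, and their intervals did not overlap. The smaller classes with a vehicle call differed among themselves. Called were 0 of 199 regions of vehicle and dexamethasone (0 to 1.84), 3 of 21 of vehicle and estradiol (14.3%, 3.05 to 36.3) and 2 of 37 of vehicle alone (5.41%, 0.661 to 18.2). Against dexamethasone-only regions the members' share was higher, with an interval that began at 0.218 where the other ended at 0.217.

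The shares were also read within bins of strength for the regions in both hormone lists. In a comparison added after the data were seen, regions in both hormone lists were divided into 3 equal bins by their estradiol p-value. All 11 called members were in the strongest bin, where 472 members gave 2.33% (1.17 to 4.13) and 920 regions of all 3 lists gave 8.04% (6.37 to 9.99). Strength was not equal inside this bin, where the median −log10 p after estradiol was 22.9 in members and 25.8 in regions of all 3 lists, with highest values of 38.9 and 91.1. In the weaker bins 0 of 1131 and 0 of 923 members were called, with upper limits of 0.326% and 0.399%. By the dexamethasone p-value, 1 of 1203 members and 0 of 186 regions of all 3 lists were called in the weakest bin. In the middle bin the shares were 0.443% for members (4 of 902, 0.121 to 1.13) and 1.65% for regions of all 3 lists (8 of 485, 0.715 to 3.22), with overlapping intervals. In the strongest bin they were 1.43% (6 of 421, 0.525 to 3.08) and 6.91% (67 of 969, 5.40 to 8.70). With lists of equal length the shares were 2.19% for members (7 of 319, 0.887 to 4.47) and 8.12% for regions of all 3 lists (72 of 887).

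**Figure D5:**
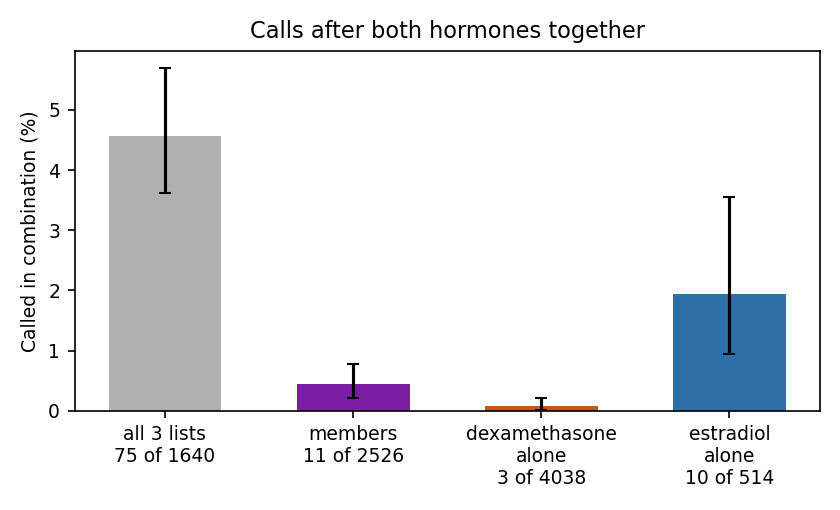
Share of merged regions called in the combination library, in percent with 95% exact intervals, for regions in all 3 lists, members, dexamethasone alone and estradiol alone, with the counts under each bar. Members, at 0.435%, lie below regions of all 3 lists (4.57%) and estradiol-only regions (1.95%).

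The 11 members called with both hormones together are given by their combination fold. Highest was chr2:92275890-92275978, with 21 tags after dexamethasone, 23 after estradiol and 21 in the combination library (13.3-fold, 13.0-fold and 16.2-fold). Close by, chr2:92290491-92290603 had 21, 25 and 19 tags, with 15.6-fold enrichment in the combination. The third was chr10:98561341-98561527, the most estradiol-weighted member, with 14, 25 and 17 tags (14.1-fold in the combination). Tag-rich surroundings marked chr18:109261-109358, with 46, 54 and 39 tags (13.6-fold), chr18:18520248-18520341, with 41, 50 and 38 tags (12.6-fold), chr19:27732673-27732784, with 36, 40 and 26 tags (10.8-fold), and chr6:58777807-58777898, with 56, 66 and 36 tags (5.72-fold). The remaining members were chr14:88237588-88237693, with 20, 22 and 16 tags (13.5-fold), chr4:3957249-3957389, with 31, 22 and 10 tags (9.50-fold), chr4:9693355-9693531, with 27, 24 and 9 tags (8.38-fold), and chr12:50135065-50135347, with 25, 23 and 10 tags (8.33-fold).

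Some traits of these 11 regions, seen in the data first and not tested, are given as a description. The estradiol pileup was the higher in 8 of the 11, in 190 of the 472 members of the strongest estradiol bin (40.3%, 35.8 to 44.8), which holds all 11, and in 510 of 2526 members in all (20.2%). In the 3 exceptions, the 2 on chromosome 4 and the 1 on chromosome 12, the combination pileup was 9 or 10 tags, lower than in the other 8, which held 16 to 39. Surroundings of at least 5 times the genome mean in both hormone libraries were found for 4 of the 11. Without members in such surroundings, 7 of 2520 were called (0.278%, 0.112 to 0.571). Leaving out every region with a neighbour within 10 kb lowered the share to 3 of 2092 members (0.143%, 0.0296 to 0.419), against 51 of 1349 regions of all 3 lists (3.78%). The part of repeated DNA in these calls was not tested.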

How the data were processed

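ATAC-seq of Ishikawa cells was analysed from the peak table of each of 4 libraries. The authors ran MACS2 2.1.0.20140616 (per the file headers) on each library alone, without a control, at a p cutoff of 1e-10, with a 2.7 Gb effective genome, a 10 kb local background and at most 1 tag per position, with 50 bp tags extended to modelled fragments of 104, 89, 84 and 51 bp (vehicle, dexamethasone, estradiol, combination). Alignment tool and build are Bowtie 1.1.2 and hg19 in the submitters' processing notes. The deposited pileup signal is a whole number of extended tags and is not scaled to depth. The fold enrichment is the authors' ratio to local background. Both p-values and q-values were deposited on the −log10 scale. Positions are deposited on hg19, counted from 1. All these values are the authors' own.

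Merging, class counts, distances and intervals were computed with pandas 2.3.3, scipy 1.17.1 and numpy 2.4.6 under Python 3.11.15 (plots with matplotlib 3.10.9), and checked on simulated lists. Where a merged region held more than 1 region of a list, the one with the best p-value gave its values. Groups came from the treatment labels. No test was made, since each treatment had 1 library. Depth ranged from 8240912 to 20185339 tags after duplicate removal. Alternatives covered the overlap required, joining within 500 bp, stricter q and fold limits, lists of equal length, all chromosomes and neighbours within 10 kb. The members, lists and rules were chosen with earlier results of these data known. Named regions are the 10 with the highest smaller fold of the 2 hormone libraries, those called in the combination library, and the 3 nearest the threshold on each side; others are marked as picked after their values were seen. The planned start-site, gene-list, cell-marker and motif comparisons were not run, because the annotation at hand is of another build.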

Additional observations from a re-analysis of the deposited data

How the results depend on the processing

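The number of members, 2526, lay between 2092 and 2527 when regions had to share 50% of the shorter one (2481), were joined within 500 bp (2489), had a −log10 q of at least 10 (2351) or a fold of at least 5 (2527), when all chromosomes entered (2527), or when regions with a neighbour within 10 kb were left out (2092). With lists of equal length it was 319, which is 12.6% of the members, with 2.19% called in the combination library and median folds of 12.9 after dexamethasone and 10.9 after estradiol; fewer and stronger regions enter there by construction. Under the q limit the median folds were 10.6 and 9.47. Without regions with a neighbour within 10 kb they were 10.6 and 9.29, and the share called in the combination library was 0.143%. In the strongest of 3 bins by estradiol p-value, added after the data were seen, that share was 2.33%. The remaining alternatives kept the combination share between 0.278% and 0.514%. The cause of these shifts was not otherwise tested. Start-site distance and motif windows were not run. No paired analysis was possible because each treatment had 1 library. A region without a call may still hold tags below its library's threshold, and with 1 library per treatment depth and hormone cannot be told apart.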
